A study of Arabidopsis thaliana with 35 samples.

Results

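In seedling roots 15 Arabidopsis genes had higher transcript levels at 28 °C than at 20 °C after both 3 h and 24 h. No comparable rise was measured in the hypocotyl or the cotyledons. Falls were not limited, and in cotyledon at 24 h 6 of the 15 lay at or below −0.2, down to −1.28. In 9 of the 15 genes every hypocotyl and cotyledon array lay below the median of all gene values, where a difference could go unseen. The members were chosen by their measured values: a difference of group means of at least 0.5 on the log2 scale in root at both times, and below 0.2 in hypocotyl and cotyledon at both times. Only genes that carry a locus code and no symbol in the annotation were eligible, and class III peroxidases were set aside. The 15 members came from 13355 genes measured, of which 11798 carry only a locus code, and 142 of those met the root threshold at both times whatever the other organs did. Leaving out the peroxidases removed 0 genes. The same thresholds turned towards the other organs gave 2 genes for the hypocotyl and 13 for the cotyledon, and the mirror image, genes lower with warmth in root alone, gave 25.

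The material was dissected hypocotyl, cotyledon and root of RRS-7 seedlings, a natural accession of Arabidopsis thaliana, with no transgene or mutation named in the labels. All seedlings grew on plates at 20 °C for 5 days with 16 h of light and 8 h of darkness under white LEDs at 120 µmol of photosynthetically active light per square metre and second. The control groups stayed at 20 °C and the warm groups were moved to 28 °C at ZT 7 on day 5, where ZT counts hours from lights on. Organs were taken 3 h later, at ZT 10, or 24 h later, at ZT 7 on day 6, so that both the time of day and the age differ between harvests. Each of the 12 groups had 3 Affymetrix arrays, apart from root at 28 °C for 3 h with 2 arrays analysed here. The replicates are biological by the labels, each pooled from material of more than one harvest session, and the whole organ was extracted, so a lower level from fewer cells of a type and one from less RNA per cell cannot be told apart.

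A rise of a few degrees that causes no damage changes the growth of Arabidopsis seedlings: hypocotyls and petioles elongate, leaves lift and primary roots grow faster. In the shoot this depends on the light and temperature receptor phytochrome B, on the transcription factor PIF4 and on auxin, while roots can respond to warmth without the shoot. Warmth also raises transcripts of heat shock proteins, chaperones that keep other proteins folded, through heat shock transcription factors. The annotation used here gives the 15 members no name and no function, so they are described by locus code and by their pattern of levels. All 15 are listed as protein-coding, each is measured by 1 probe set, and they are spread over the 5 chromosomes with 3, 2, 2, 3 and 5 members on chromosomes 1 to 5.

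Values are log2 expression levels after RMA, a procedure that corrects background, equalises the distributions of the arrays and combines the probes of a set. A difference of 1 on this scale is a 2-fold change. Values ran from 2.20 to 14.3 over all probe sets, and array medians over all probe sets from 5.65 to 5.93. Levels of different probe sets cannot be compared with each other, so differences are taken within a gene across arrays. The exception is the median of all gene values, 5.38, which serves as a rough mark of low values. The organ labels were checked with gene lists. The mean of 8 root hair genes was 7.93 to 8.59 in the root arrays against 4.77 to 5.50 in hypocotyl and 4.96 to 5.39 in cotyledon. The mean of 4 photosynthesis genes was 6.02 to 6.96 in root against 11 to 11.6 in hypocotyl and 12 to 12.7 in cotyledon.

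In root the difference between 28 °C and 20 °C was 0.51 to 1.63 over the 15 members at 3 h, with a median of 0.65, and 0.55 to 2.47 at 24 h, with a median of 0.87. The median over all genes was −0.0031 at 3 h and −0.0052 at 24 h. Differences of at least 1, or 2-fold, were seen in 2 members at 3 h and in 7 at 24 h. Standard errors from the fit were 0.11 to 0.26 at 3 h and 0.097 to 0.23 at 24 h. Every 28 °C root array lay above every 20 °C root array in 15 of 15 members at 3 h and in 14 of 15 at 24 h, where 19.2% and 16.5% of all genes showed such a separation. These values chose the members, so they are a description and no test is given for them. Going from 3 h to 24 h the root difference was larger in 11 members and smaller in 4, and that change ran from −0.46 to 1.83 with a median of 0.21.

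**Figure D1:**
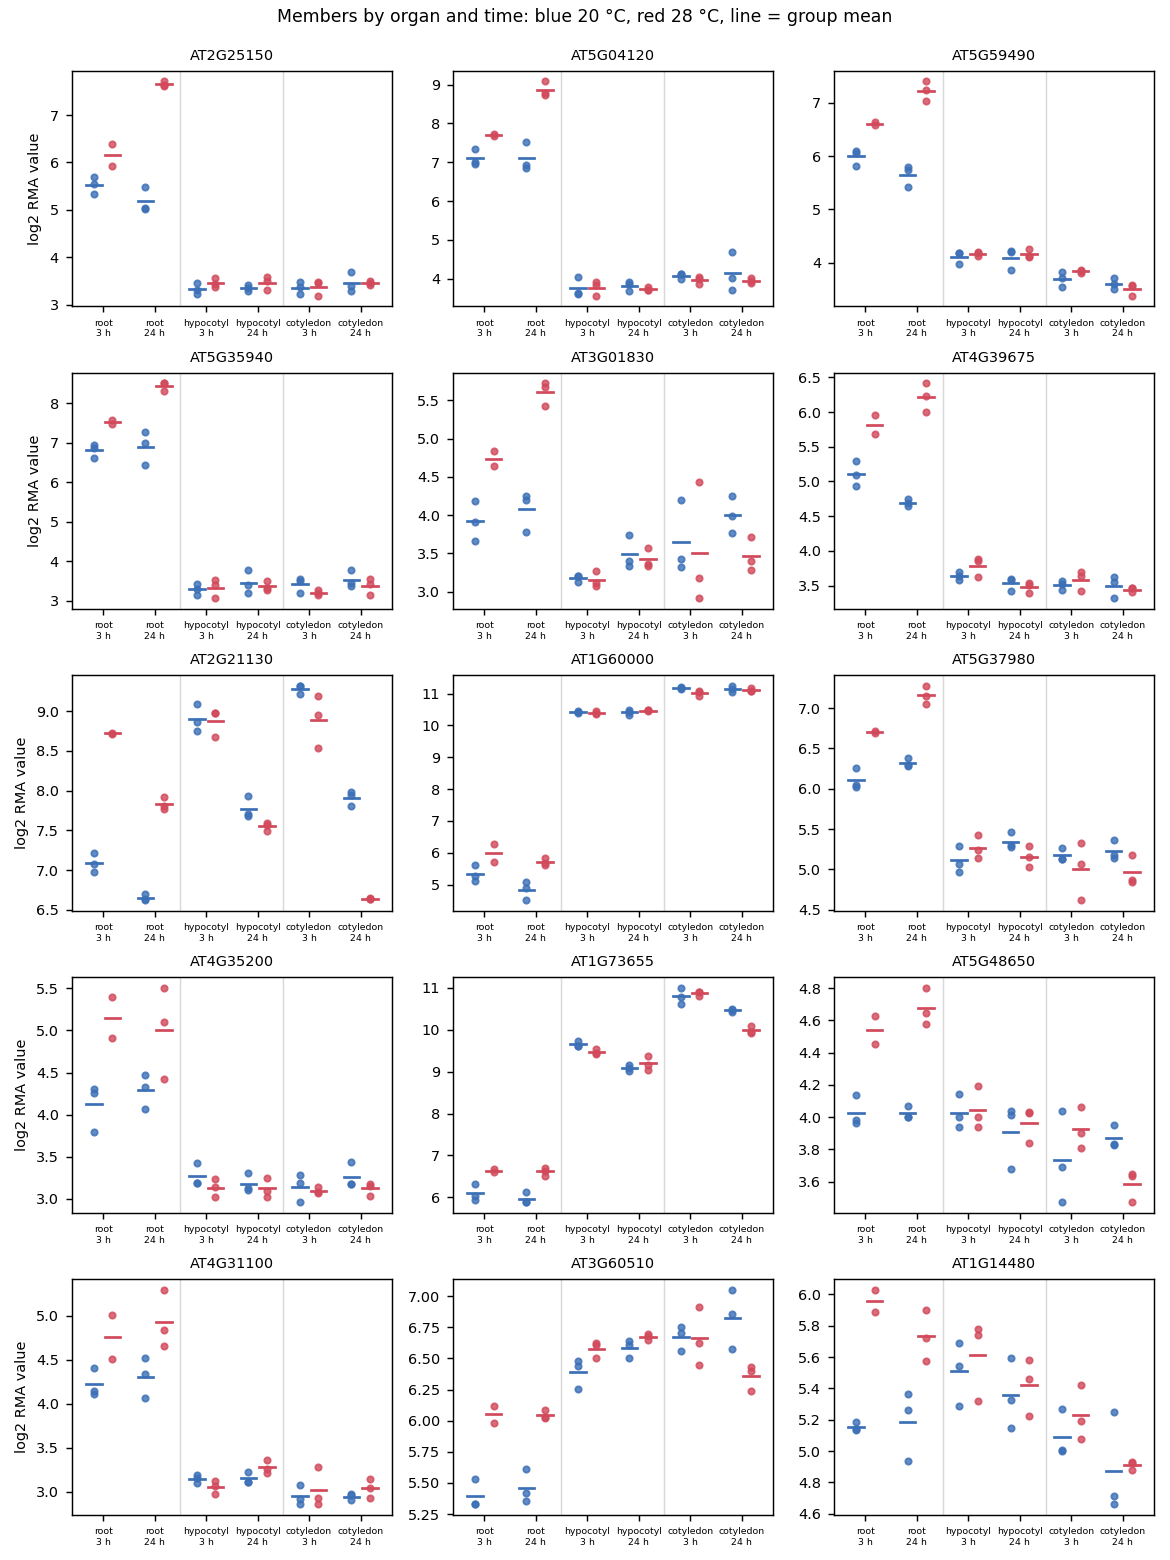
Log2 RMA values of the 15 members in every array, 1 panel per gene, ordered by the root difference at 24 h. Blue points are 20 °C arrays, red points 28 °C arrays and short lines group means, for root, hypocotyl and cotyledon at 3 h and 24 h, and the vertical axes differ between panels and do not start at 0. The red root points lie above the blue ones in all panels at 3 h, while in AT4G35200 at 24 h the lowest 28 °C value of 4.42 lies below the highest 20 °C value of 4.47.

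In 6 members the root difference was larger after 24 h than after 3 h by 0.71 to 1.83. AT2G25150 had the widest gap. Its root levels were 5.34, 5.55 and 5.70 at 20 °C and 6.40 and 5.93 at 28 °C after 3 h. After 24 h they were 5.05, 5.48 and 5.02 at 20 °C and 7.71, 7.63 and 7.60 at 28 °C. The 3 warm arrays of 24 h thus stood 2.13 above the highest control array, and the difference went from 0.63 ± 0.14 (SE) to 2.47 ± 0.12. In hypocotyl and cotyledon the same gene stayed between 3.19 and 3.68 in all 24 arrays, with warm differences of 0.00 to 0.13.

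AT5G04120 measured 7.0, 7.34 and 6.96 in root at 20 °C and 7.73 and 7.67 at 28 °C after 3 h. After 24 h the values were 6.85, 7.53 and 6.92 at 20 °C and 9.09, 8.73 and 8.78 at 28 °C. The groups did not overlap at either time, and the difference was 0.60 ± 0.19 and then 1.76 ± 0.17, which is 1.52-fold and 3.40-fold. Replicate 2 was the highest of the 20 °C arrays at both times. AT5G59490 gave 6.10, 5.82 and 6.07 at 20 °C against 6.58 and 6.64 at 28 °C after 3 h. At 24 h it gave 5.41, 5.79 and 5.74 against 7.40, 7.24 and 7.03. The warm arrays were higher at both times, by 0.61 ± 0.12 and 1.57 ± 0.11, and the larger second difference includes a lower level in the 20 °C roots of 24 h.

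AT5G35940 was at 6.61, 6.87 and 6.94 in root at 20 °C and at 7.57 and 7.49 at 28 °C after 3 h. At 24 h it was at 6.99, 7.27 and 6.44 at 20 °C and at 8.31, 8.50 and 8.50 at 28 °C. No array of one temperature reached into the other, and the difference of 0.72 ± 0.18 at 3 h became 1.54 ± 0.16 at 24 h. AT4G39675 showed 5.09, 4.93 and 5.29 at 20 °C and 5.95 and 5.68 at 28 °C after 3 h. Its 24 h values were 4.75, 4.65 and 4.69 at 20 °C and 6.00, 6.23 and 6.41 at 28 °C. The control roots of 24 h were close together and all below those of 3 h, and the warm difference was 0.71 ± 0.12 at 3 h and 1.52 ± 0.10 at 24 h.

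AT3G01830 had the widest standard errors in the set. It measured 4.19, 3.66 and 3.91 in root at 20 °C and 4.84 and 4.64 at 28 °C after 3 h. After 24 h it measured 3.78, 4.25 and 4.20 at 20 °C and 5.72, 5.42 and 5.68 at 28 °C. The warm roots were the higher ones at both times, by 0.82 ± 0.26 and 1.53 ± 0.23. Its cotyledon values scattered, with 4.19, 3.33 and 3.43 at 20 °C and 2.92, 4.43 and 3.18 at 28 °C after 3 h, so the 2 groups overlapped there.

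In AT2G21130 the difference was largest at 3 h. Root levels were 7.21, 7.08 and 6.98 at 20 °C and 8.71 and 8.73 at 28 °C. At 24 h they were 6.70, 6.64 and 6.62 at 20 °C and 7.81, 7.76 and 7.92 at 28 °C. The warm roots stood at least 1.07 above the controls at both times, and the difference was 1.63 ± 0.12, or 3.10-fold, and then 1.18 ± 0.11, or 2.26-fold. This member ran the other way in cotyledon at 24 h, with 7.95, 7.80 and 7.99 at 20 °C against 6.63, 6.64 and 6.63 at 28 °C, a difference of −1.28 ± 0.11. At 3 h the cotyledon difference was −0.39 ± 0.11, and in hypocotyl it was −0.02 ± 0.11 at 3 h and −0.22 ± 0.11 at 24 h. After 24 h at 28 °C the gene was therefore higher in root than in cotyledon, the reverse of the order at 20 °C.

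AT4G35200 and AT1G14480 also had the larger difference at 3 h. AT4G35200 read 4.31, 3.80 and 4.26 at 20 °C and 5.39 and 4.91 at 28 °C after 3 h, a difference of 1.03 ± 0.19. At 24 h it read 4.33, 4.47 and 4.07 at 20 °C and 5.10, 4.42 and 5.51 at 28 °C, a difference of 0.72 ± 0.17. It is the member whose root groups overlapped, through the warm replicate 2, and it no longer met the rule when the warm replicate 3 of 24 h was dropped. AT1G14480 read 5.14, 5.14 and 5.19 at 20 °C and 5.88 and 6.03 at 28 °C after 3 h. At 24 h it read 4.94, 5.26 and 5.37 at 20 °C and 5.72, 5.58 and 5.90 at 28 °C. Its groups stayed apart, by 0.70 between the nearest arrays at 3 h and by 0.21 at 24 h, with differences of 0.80 ± 0.16 and 0.55 ± 0.15.

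A further 3 members had smaller differences, with 24 h values 0.09 to 0.25 above those of 3 h. AT5G37980 was at 6.25, 6.02 and 6.04 at 20 °C and 6.71 and 6.69 at 28 °C after 3 h, and at 6.39, 6.28 and 6.29 against 7.05, 7.28 and 7.15 after 24 h. AT4G31100 was at 4.10, 4.41 and 4.14 against 5.00 and 4.5 after 3 h, and at 4.51, 4.33 and 4.06 against 4.66, 4.84 and 5.29 after 24 h. AT5G48650 was at 3.96, 4.14 and 3.98 against 4.46 and 4.63 after 3 h, and at 4.00, 4.00 and 4.07 against 4.58, 4.64 and 4.80 after 24 h. In these 3 genes every warm root array exceeded every control array, and the nearest arrays of AT4G31100 were 0.09 apart at 3 h. The differences at 3 h and 24 h were 0.59 ± 0.14 and 0.84 ± 0.12 for AT5G37980, 0.53 ± 0.15 and 0.63 ± 0.13 for AT4G31100, and 0.51 ± 0.12 and 0.65 ± 0.11 for AT5G48650.

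**Figure D2:**
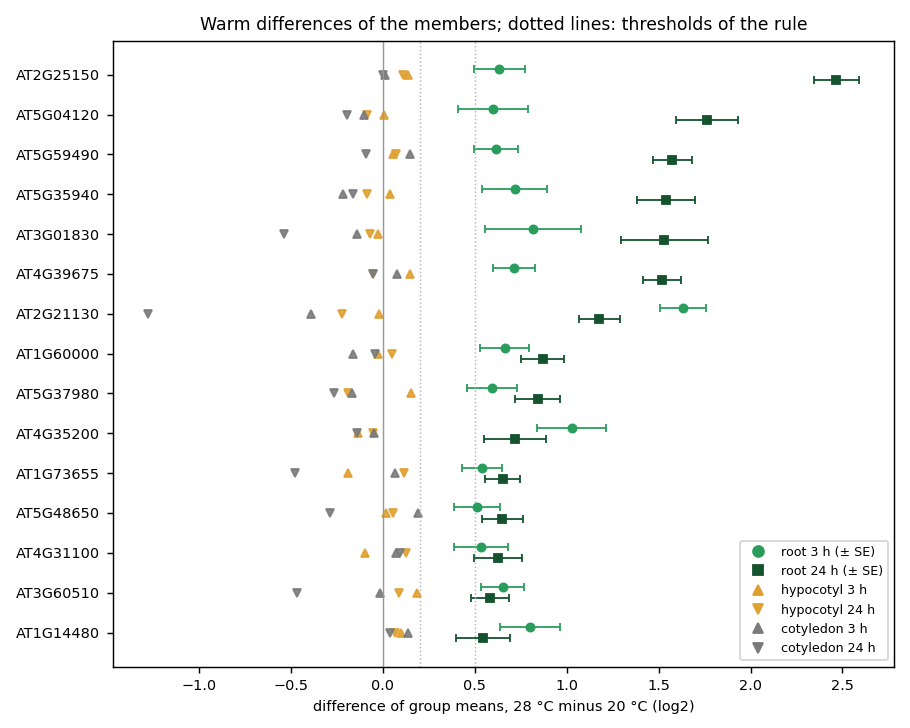
Difference of group means, 28 °C minus 20 °C on the log2 scale, for each member, with standard errors from the fit on the root values and dotted lines at the thresholds of 0.2 and 0.5. Green circles and squares are root at 3 h and 24 h, and triangles are hypocotyl and cotyledon. The root squares reach 2.47 in AT2G25150, and the lowest triangle is AT2G21130 in cotyledon at 24 h at −1.28.

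The rule set an upper limit of 0.2 on the other organs and no lower limit, and members lay on both sides of 0 there. In hypocotyl the median of the 15 differences was 0.017 at 3 h and 0.053 at 24 h, with 1 member at or below −0.2 at 24 h. In cotyledon the median was −0.012 at 3 h and −0.16 at 24 h, when 12 of 15 members were below 0 and 6 at or below −0.2. Those 6 were AT2G21130, AT3G01830 (−0.54 ± 0.23), AT1G73655 (−0.47 ± 0.10), AT3G60510 (−0.47 ± 0.11), AT5G48650 (−0.29 ± 0.11) and AT5G37980 (−0.26 ± 0.12). These values also entered the rule and carry no test. In 9 members, AT2G25150, AT3G01830, AT4G31100, AT4G35200, AT4G39675, AT5G04120, AT5G35940, AT5G48650 and AT5G59490, all 24 hypocotyl and cotyledon arrays lay below 5.38, the median of all gene values. The deposited values hold no background reading, so signal above background is not known there, and small warm differences in these organs and the sizes of organ differences rest on such low values.

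The members nearest to the root threshold, by the smaller of their root differences, were AT5G48650 at 0.51, AT4G31100 at 0.53 and AT1G73655 at 0.54. The genes just outside it were AT3G09440 at 0.495, AT3G14360 at 0.491 and AT3G60540 at 0.489. Towards the threshold of the other organs, the nearest members by their highest hypocotyl or cotyledon difference were AT5G48650 at 0.191, AT3G60510 at 0.188 and AT5G37980 at 0.156. AT4G22250 at 0.207, AT1G55530 at 0.210 and AT5G47740 at 0.236 were just outside. AT2G21130, AT3G01830, AT5G04120 and AT5G35940 met the rule when any 1 of the 35 arrays was left out, while AT1G14480 and AT5G48650 met it in 29 of the 35 cases. The count of members ran from 13 to 20 over these cases. AT4G31100, AT4G35200 and AT5G48650 stayed below 5.38, the median of the values of the 13355 genes over all arrays, in the mean of every group.

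Where the members are expressed without warming was not part of the rule and was tested over the 20 °C arrays of both harvests, which are however the same 20 °C arrays that the rule used. In limma's moderated test 9 of the 15 members were higher in root than in cotyledon and 4 were lower, where 39.1% of all genes were higher and 37.5% lower. Against the hypocotyl 9 were higher in root and 5 lower, where 35.9% and 24.5% of all genes were. The shares of 9 in 15 lie above the share of all genes in both comparisons, with no test of that excess. The rule itself can favour such genes, since a gene with low values in hypocotyl and cotyledon can more readily stay below 0.2 there. In the 9 members named above all 24 hypocotyl and cotyledon arrays lay below 5.38, so the excess is not a result separate from the rule. The median member was 1.0 higher in root than in cotyledon and 0.98 higher than in hypocotyl, against −0.032 and 0.030 for all genes. Between the other organs 2 members were higher and 6 lower in hypocotyl than in cotyledon, where 30.2% and 36.1% of all genes were.

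These organ differences depend on how the arrays are put on one scale. Centring the arrays on 12 reference genes moved the median of all genes by −0.23 for root minus cotyledon and by −0.20 for root minus hypocotyl. The split of all genes then became 4140 higher and 7627 lower in root than in cotyledon in place of 5218 and 5002, and 3509 and 6935 against hypocotyl in place of 4800 and 3269. Centring on array medians moved root minus cotyledon by −0.12 and hypocotyl minus cotyledon by −0.13, and changed the split of the latter from 4034 and 4824 to 3118 and 7250. With dim genes left out, 4581 genes were higher and 2632 lower in root than in cotyledon, and 3686 and 2548 in hypocotyl than in cotyledon. Under both centrings 8 members were higher and 4 lower in root than in cotyledon, and 9 were higher and 5 lower in root than in hypocotyl.

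AT5G35940 and AT5G04120 had the largest differences of root over the other organs on the RMA scale, given without folds because the levels in hypocotyl and cotyledon were low. At 20 °C AT5G35940 lay between 6.44 and 7.27 in root with a median of 6.91, between 3.14 and 3.76 in hypocotyl and between 3.20 and 3.77 in cotyledon. It was higher in root than in cotyledon (3.38 ± 0.11, limma adjusted p = 1.08e-23) and than in hypocotyl (3.49 ± 0.11, limma adjusted p = 7.56e-24). Hypocotyl and cotyledon did not differ beyond the spread of the arrays (−0.10 ± 0.11, limma adjusted p = 0.421). AT5G04120 lay between 6.85 and 7.53 in root, between 3.62 and 4.05 in hypocotyl and between 3.71 and 4.70 in cotyledon. It was higher in root than in cotyledon (3.00 ± 0.12, limma adjusted p = 2.98e-21) and than in hypocotyl (3.31 ± 0.12). Its hypocotyl level was below the cotyledon level by 0.31 ± 0.12, a call that ended in 4 of the fits without 1 array and when the arrays were quantile-normalised again.

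AT5G59490 and AT2G25150 had a similar pattern at a smaller size. AT5G59490 ran from 5.41 to 6.10 in root, from 3.87 to 4.22 in hypocotyl and from 3.5 to 3.82 in cotyledon, which put the organs in the order root, hypocotyl, cotyledon with no overlap between them. Its root level exceeded the cotyledon level by 2.17 ± 0.08 (limma adjusted p = 5.6e-23) and its hypocotyl level did so by 0.45 ± 0.08 (limma adjusted p = 4.05e-06). AT2G25150 ran from 5.02 to 5.70 in root, from 3.22 to 3.45 in hypocotyl and from 3.22 to 3.68 in cotyledon. Its root level exceeded the cotyledon level by 1.95 ± 0.09, and hypocotyl and cotyledon did not differ beyond their spread (−0.07 ± 0.09, limma adjusted p = 0.476).

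Another 4 members were higher in root than in either other organ at 20 °C by 0.98 to 1.40: AT4G39675 (1.40 ± 0.07 against cotyledon and 1.31 ± 0.07 against hypocotyl), AT4G31100 (1.31 ± 0.09 and 1.11 ± 0.09), AT5G37980 (1.01 ± 0.09 and 0.98 ± 0.09) and AT4G35200 (1.0 ± 0.12 and 0.99 ± 0.12). In none of these 4 did hypocotyl and cotyledon differ beyond their spread in the main fit, with limma adjusted p from 0.0567 to 0.904, although AT4G31100 and AT4G39675 passed under some other settings. AT3G01830 was higher in root than in hypocotyl (0.66 ± 0.17, limma adjusted p = 0.000744) and not separated from cotyledon (0.17 ± 0.17, limma adjusted p = 0.349). Its lower level in hypocotyl than in cotyledon (−0.49 ± 0.17) lost its call without replicate 1 of cotyledon at 20 °C and 3 h.

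AT5G48650 and AT1G14480 had organ differences of at most 0.45 at 20 °C. AT5G48650 was higher in root than in cotyledon by 0.22 ± 0.08 (limma adjusted p = 0.0112), which became 0.11 with no call when arrays were centred on their medians, −0.0094 when they were centred on reference genes, and 0.16 with no call without replicate 2 of cotyledon at 20 °C and 3 h. Root and hypocotyl did not differ beyond their spread in this gene (0.06 ± 0.08, limma adjusted p = 0.567). AT1G14480 was lower in root than in hypocotyl by 0.26 ± 0.10 (limma adjusted p = 0.0281), and that call ended without any of 4 single arrays. Its hypocotyl level exceeded the cotyledon level by 0.45 ± 0.10 (limma adjusted p = 0.000319).

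**Figure D3:**
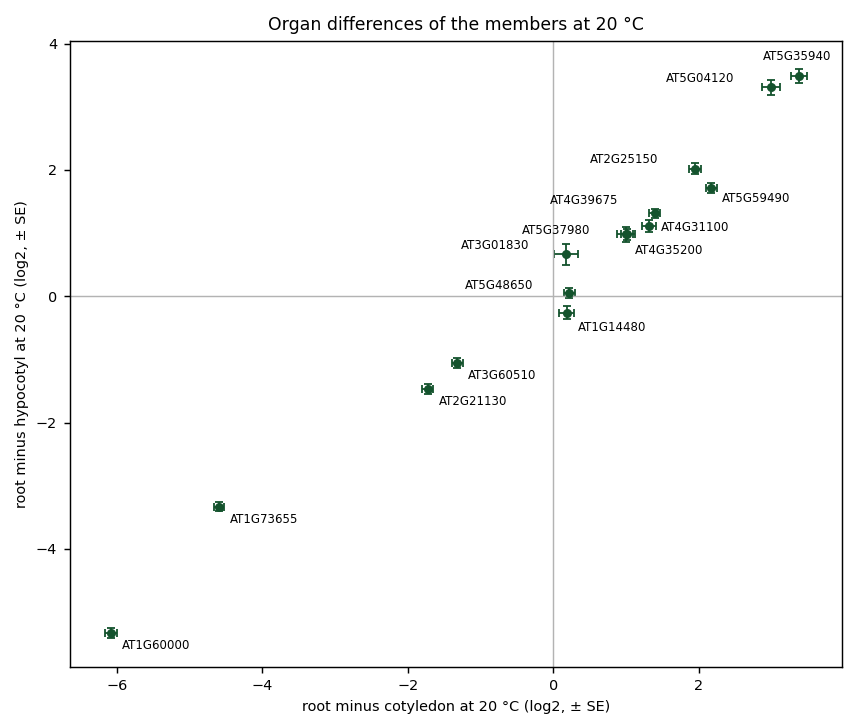
Organ differences of the 15 members at 20 °C on the log2 scale, root minus cotyledon on the horizontal axis and root minus hypocotyl on the vertical axis, averaged over both harvests, with standard errors from the fit. Points at the upper right are genes higher in root, up to 3.38 and 3.49 in AT5G35940, and the 4 points at the lower left are genes lower in root, down to −6.08 and −5.33 in AT1G60000.

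The other 4 members were lower in root than in both green organs at 20 °C. AT1G60000 stood between 4.52 and 5.6 in root, between 10.32 and 10.47 in hypocotyl and between 11.06 and 11.25 in cotyledon. Root minus cotyledon was −6.08 ± 0.08 (limma adjusted p = 3.63e-34) and root minus hypocotyl −5.33 ± 0.08, against root levels that lay largely below 5.38. AT1G73655 stood between 5.89 and 6.33 in root, between 9.0 and 9.73 in hypocotyl and between 10.4 and 11 in cotyledon, a 24.2-fold difference between cotyledon and root (−4.60 ± 0.07, limma adjusted p = 2.96e-33). Both genes had the order cotyledon, hypocotyl, root with no overlap between organs. AT2G21130 (−1.73 ± 0.08) and AT3G60510 (−1.32 ± 0.07) were lower in root than in cotyledon by 3.31-fold and 2.50-fold, and lower than in hypocotyl by 2.76-fold and 2.08-fold.

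In these 4 genes warmth went with a higher level in the organ where the level was lowest at 20 °C. AT1G60000 read 5.6, 5.10 and 5.27 in root at 20 °C and 5.72 and 6.26 at 28 °C after 3 h, and 5.09, 4.90 and 4.52 against 5.67, 5.62 and 5.83 after 24 h. The differences were 0.66 ± 0.13 and 0.87 ± 0.12, and the nearest arrays at 3 h were 0.11 apart. AT1G73655 read 6.33, 5.94 and 6.03 against 6.67 and 6.61 after 3 h, and 5.89, 5.90 and 6.12 against 6.51, 6.64 and 6.71 after 24 h, with differences of 0.54 ± 0.11 and 0.65 ± 0.10. AT3G60510 read 5.53, 5.33 and 5.33 against 6.12 and 5.98 after 3 h, and 5.35, 5.61 and 5.42 against 6.02, 6.08 and 6.03 after 24 h, with differences of 0.65 ± 0.12 and 0.58 ± 0.11. All warm root arrays of these genes lay above all control root arrays at the same time.

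Photosynthesis genes, markers of green tissue, were followed in the same root arrays. The mean of the 4 measured ones (LHCB4.1, LHCB4.2, LHCB4.3 and RCA, which encode antenna proteins of photosystem II and Rubisco activase) was 6.29, 6.02 and 6.35 at 20 °C and 6.32 and 6.96 at 28 °C after 3 h. At 24 h it was 6.46, 6.46 and 6.04 at 20 °C and 6.67, 6.59 and 6.6 at 28 °C. In root the temperatures overlapped at 3 h and not at 24 h. The same mean was also higher at 28 °C in hypocotyl and cotyledon at both times, with no overlap. In hypocotyl the highest 20 °C array and the lowest 28 °C array were 11.07 and 11.43 at 3 h. At 24 h they were 11.27 and 11.49. In cotyledon they were 12.14 and 12.32 at 3 h, and 12.49 and 12.6 at 24 h. Of the 4 genes 2 rose in root at 3 h, LHCB4.2 (0.66 ± 0.16, limma adjusted p = 0.00502) and LHCB4.1 (0.48 ± 0.12), and 2 at 24 h, LHCB4.3 (0.50 ± 0.11, limma adjusted p = 0.00091) and LHCB4.1 (0.35 ± 0.11), where 5.38% and 8.39% of all genes rose. Leaving out the warm array replicate 2 took the 2 rises of 3 h to 0, and leaving out the control array replicate 2 took them to 1. At 24 h, 1 rise was left when the warm replicate 1 or 3 or the control replicate 2 or 3 was dropped.

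The root array with the highest photosynthesis mean, replicate 2 at 28 °C and 3 h, also had the highest root values of AT1G60000, AT2G21130 (8.73, against 8.71 in replicate 1) and AT1G14480 (6.03). Without this array AT1G60000 and AT5G48650 no longer met the rule. AT1G73655 and AT3G60510 were not highest there and met the rule without that array, as AT2G21130 did. The part of green tissue or of its RNA in the root values of these members was not tested.

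**Figure D4:**
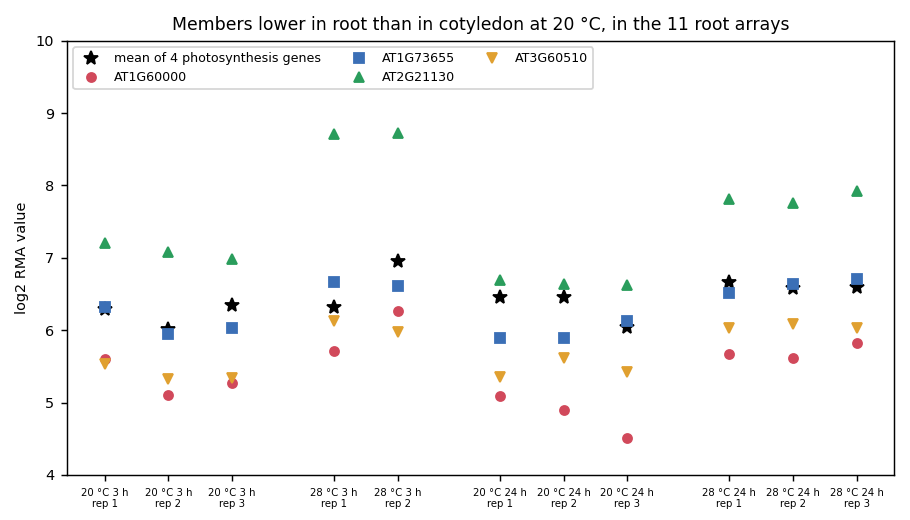
Log2 RMA values of the 4 members that were lower in root than in cotyledon at 20 °C, and the mean of 4 photosynthesis genes (stars), in the 11 root arrays ordered by temperature and time. The vertical axis starts at 4. The star is highest at 6.96 in replicate 2 at 28 °C and 3 h, where AT1G60000 also reaches its root maximum of 6.26, while AT2G21130 is at 8.71 and 8.73 in both warm arrays of 3 h.

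The harvests at 20 °C gave a test of change with time of day and age, on the same 20 °C arrays. In cotyledon 2 members were lower at 24 h than at 3 h and 0 higher, where 17.6% of all genes changed. In hypocotyl the same 2 members were lower and 0 higher, where 1.94% of all genes changed. These were AT2G21130 and AT1G73655. In cotyledon at 20 °C AT2G21130 went from 9.32, 9.31 and 9.22 at 3 h to 7.95, 7.80 and 7.99 at 24 h (−1.37 ± 0.11, limma adjusted p = 3.33e-11), and in hypocotyl from 8.75, 9.09 and 8.86 to 7.68, 7.93 and 7.70 (−1.13 ± 0.11, limma adjusted p = 2.99e-08). The harvests did not overlap in either organ. AT1G73655 fell by 0.57 ± 0.10 in hypocotyl (limma adjusted p = 0.000375) and by 0.34 ± 0.10 in cotyledon (limma adjusted p = 0.0115). The cotyledon call was lost without replicate 1 at 20 °C and 3 h, at −0.24, and when the fit held only the compared arrays.

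In root 0 members passed between the harvests at 20 °C at an adjusted p under 0.05, where 0.419% of all genes did. An unadjusted p under 0.05 was found in 5 members, and the share of all genes at that level was not counted. The lowest adjusted p were those of AT1G60000 (−0.49 ± 0.12, limma adjusted p = 0.0537), AT4G39675 (−0.41 ± 0.10, limma adjusted p = 0.0678) and AT2G21130 (−0.44 ± 0.11, limma adjusted p = 0.0737). With a mean-variance trend and robust variances in limma, AT1G60000 and AT2G21130 passed, so the count became 2. It was also 2 when replicate 2 of the 3 h controls was dropped, and 1 when replicate 1 of the 24 h controls was.

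The change between harvests at 20 °C was then compared between organs. It differed between cotyledon and root in 1 member, where it did in 10.2% of all genes. That member was AT2G21130, whose fall was larger in cotyledon by 0.94 ± 0.16 (limma adjusted p = 8.17e-05). At an unadjusted p under 0.05 there were 4 members, and the share of all genes at that level was not counted. Left-out arrays took the count of 1 to 2 (replicate 2 of cotyledon at 24 h, replicate 1 or 2 of root at 24 h) and to 3 (replicate 2 of root at 3 h). Between hypocotyl and root 0 members differed at an adjusted p under 0.05, where 0.217% of all genes did. At an unadjusted p under 0.05 there were 6 members, again without a share of all genes to set beside them. AT2G21130 was nearest there (−0.69 ± 0.16, limma adjusted p = 0.0539), and it passed without replicate 2 of hypocotyl at 24 h and under 4 other settings. Between hypocotyl and cotyledon 0 members differed, where 5.05% of all genes did, and 0 had an unadjusted p under 0.05.

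Other gene groups were read in the same root comparison, from 17 lists of which 11 had a measured gene. Of 263 listed genes 52 were measured, so each group is only a part of its list. Measured were 10 of 26 heat shock, 3 of 17 endoplasmic reticulum folding and 4 of 21 immunity genes. For root hair, hypoxia and photosynthesis it was 8 of 19, 6 of 16 and 4 of 25. None of the measured list genes was a member. Of 10 heat shock genes, 9 rose and 0 fell at both times, where 5.38% of all genes rose and 5.35% fell at 3 h. At 24 h 8.39% of all genes rose and 9.31% fell. The heat shock medians were 1.95 at 3 h and 1.15 at 24 h, beside −0.0031 and −0.0052 over all genes. In 3 h roots AT5G48570 rose by 5.26 ± 0.21, AT2G29500 by 4.76 ± 0.25, AT1G53540 by 4.54 ± 0.21 and AT5G51440 by 3.26 ± 0.20, and at 24 h they rose by 4.38 ± 0.18, 2.87 ± 0.23, 2.24 ± 0.19 and 3.27 ± 0.18. AT3G09440, the gene just outside the root threshold, is in the heat shock list and rose at both times (0.73 ± 0.12 and 0.49 ± 0.11).

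Of 3 measured genes for protein folding in the endoplasmic reticulum, 3 rose at 3 h and 1 at 24 h, where 5.38% and 8.39% of all genes rose. ATERDJ3B, a J-domain co-chaperone of that compartment, rose by 1.18 ± 0.11 and 0.96 ± 0.09. The calreticulin gene CRT1b rose by 0.53 ± 0.12 at 3 h and AT5G07340 by 0.48 ± 0.11, and their 24 h values were 0.13 ± 0.11 and 0.10 ± 0.10. Of 4 genes of pattern-triggered immunity, 1 rose and 1 fell at 3 h, where 5.35% of all genes fell, and 3 rose and 0 fell at 24 h, where 9.31% of all genes fell. WRKY53, a transcription factor of defence and senescence, rose by 1.26 ± 0.26 and 2.40 ± 0.23. The zinc finger gene STZ rose by 1.48 ± 0.41 at 24 h, and AT1G51890 fell by 0.54 ± 0.17 at 3 h and rose by 0.46 ± 0.15 at 24 h. Dropping the control replicate 1 took the 3 rises of 24 h to 1. The rise at 3 h depended on the warm replicate 2, and the fall on that array and on the control replicates 1 and 2, each of which ended it when dropped.

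Of 8 root hair genes, 1 rose at 3 h and 2 at 24 h and 0 fell, where 5.38% and 8.39% of all genes rose, with medians of 0.039 and 0.27. EXPA7, an expansin of root hairs, rose by 0.59 ± 0.16 and 0.46 ± 0.15, and AT4G08410 rose by 0.49 ± 0.16 at 24 h. The rise of 3 h was lost without replicate 1 at either temperature. Of the 2 rises of 24 h, 0 were left when the warm replicate 1 or the control replicate 1 or 2 was dropped, and 1 when either replicate 3 was. The root hair mean lay between 7.93 and 8.23 at 20 °C and between 8.16 and 8.18 at 28 °C after 3 h, and between 8.09 and 8.33 and between 8.39 and 8.59 after 24 h. It was thus separated by temperature at 24 h, as 14 of the 15 members were, and its part in their values was not tested.

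Of 6 hypoxia genes 1 rose at both times, AT3G27220 (0.62 ± 0.16 and 0.83 ± 0.15), where 5.38% and 8.39% of all genes rose. At 3 h this count was 0 when the warm replicate 1 or the control replicate 2 or 3 was dropped, and at 24 h it was 2 without the control replicate 3. The single measured gene of root triterpene synthesis, AT5G47980, rose at 24 h by 0.81 ± 0.26. The 2 measured genes of lignin monomer synthesis and the single ones of the Casparian strip and of ethylene passed in neither direction. Of 12 reference genes 0 passed at 3 h, where 5.38% of all genes rose and 5.35% fell. At 24 h AT4G26410 rose by 0.22 ± 0.08 and PEX4 fell by 0.26 ± 0.07, where 8.39% of all genes rose and 9.31% fell.

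The genes next to the members on the chromosome were looked at after the members were known. The 15 members have 30 protein-coding neighbours, 1 on each side, of which 18 were measured and 0 were members. At 3 h 3 of the 18 rose and 2 fell in root, and at 24 h 4 rose and 1 fell, with medians of 0.052 and 0.12 beside −0.0031 and −0.0052 over all genes. Of all genes 5.38% rose and 5.35% fell at 3 h, and 8.39% rose and 9.31% fell at 24 h. AT1G60010, beside AT1G60000, rose at both times (0.44 ± 0.10 and 0.67 ± 0.09). AT5G37990 beside AT5G37980 (0.55 ± 0.18) and AT3G60520 beside AT3G60510 (0.57 ± 0.13) rose at 24 h. AT4G31080 beside AT4G31100 (0.36 ± 0.09) also rose at 24 h. The other rises of 3 h were AT5G04110 beside AT5G04120 (0.38 ± 0.10) and AT5G59480 beside AT5G59490 (0.37 ± 0.10). AT1G73650, beside AT1G73655, fell at both times, by 0.77 ± 0.11 and 0.47 ± 0.10, the opposite direction to its neighbour. AT4G39670, beside AT4G39675, also went the opposite way at 3 h (−0.52 ± 0.16). Dropping the warm replicate 1 took the 3 rises and 2 falls of 3 h to 1 and 1, and dropping the warm replicate 2 or the control replicate 1 or 3 also left 1 fall.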

How the data were processed

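The authors deposited 1 table of log2 expression values per probe set for the 35 arrays. Per the submitters' processing notes their tools were RMA and limma, without versions, and the set of arrays that RMA was run on is not given in the sources used here. Of 22746 probe sets, 13513 name 1 gene in the annotation of the array, 503 name several and 8730 are not listed there and were not named. For the 147 genes with several, the probe set of highest mean was taken, and 13285 of 13355 genes matched RefSeq (TAIR10.1), used for symbols and gene order.

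A linear model of the 12 groups was fitted over the 35 arrays (limma 3.58.1 under R 4.3.3, with lmFit, contrasts.fit and eBayes, leaving 23 residual degrees of freedom). P-values are two-sided, with Benjamini-Hochberg adjustment over all genes of a comparison, with a threshold of 0.05, and no filter on low values was used. Errors are standard errors of that fit. Differences are log2, and folds are 2 to that power. P-values measure the spread between these arrays, whose number limits the precision. The procedure was tested on simulated data.

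The members, the gene lists and the comparisons were chosen with earlier results of these data known. Named genes are all members, up to 4 passing genes of each of 17 lists with the largest root difference, and the 3 genes nearest each threshold on either side. Genes beside members on the chromosome and the TBL genes fall outside this rule and were chosen after their values were seen. Lists of indole defence, jasmonate, root nutrient transport, salicylate defence, secondary wall and suberin had 0 measured genes. Same-numbered replicates of different groups did not deviate together (correlations from −0.20 to 0.27), so the numbers were not used as pairs. The label of one cotyledon array at 28 °C and 3 h gives 2 different replicate numbers, and the title's was used. Alternatives were other scalings, probe set choices, thresholds, group medians, variance settings, dim genes left out, the replicate number as a block, and each array left out in turn. Genes were called dim where every group mean lay below 5.38, the median of all gene values, which left 8036.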

Additional observations from a re-analysis of the deposited data

Results flagged for a closer look

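In 1 member a harvest effect differed between organs. At 20 °C AT2G21130 fell from 3 h to 24 h by 1.37 ± 0.11 in cotyledon, while its value in root was −0.44 ± 0.11 with no call (limma adjusted p = 0.0737). These effects differed by −0.936 ± 0.16 (limma adjusted p = 8.17e-05). It was lower at 24 h in all 3 cotyledon arrays and all 3 root arrays. Groups hold at most 3 arrays, too few to tell within a group whether a single array stands apart, and single arrays were only left out in turn.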

How the results depend on the processing

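The 15 members depend most on the thresholds that define them. A root threshold of 0.4 gave 33 genes and one of 0.6 gave 9, and a threshold of 0.1 for the other organs gave 6 and one of 0.3 gave 23. Centring on array medians gave 15 genes, 14 of them shared, quantile normalisation again and centring on reference genes 17 each, 14 shared, and group medians 16, 11 shared. AT5G48650 was lost under each of these 4 settings. Both other probe set choices gave the same 15, and 12 were left without dim genes. With 1 array left out there were 13 to 20 members.

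At 20 °C, members called between harvests in root were 2 with centring on reference genes, 2 with trend and robust variances and 1 without dim genes, in place of 0. In cotyledon 1 was called with only the compared arrays, in place of 2. For the difference of cotyledon and root there were 3 with reference genes and 2 with trend and robust variances in place of 1. For hypocotyl and root there was 1 with quantile normalisation again, trend and robust variances, dim genes left out or only the compared arrays, in place of 0. Members higher in hypocotyl than in cotyledon were 5 after quantile normalisation again, in place of 2, and 2 list genes were lower in root at 3 h with only the compared arrays, in place of 1. AT5G48650, root minus cotyledon, was −0.0094 with centring on reference genes. The causes were not tested.

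With 1 array left out, members called between harvests numbered 1 to 2 in cotyledon, 2 in hypocotyl and 0 to 2 in root, and between organs 1 to 3 (cotyledon, root), 0 (hypocotyl, cotyledon) and 0 to 1 (hypocotyl, root). Higher and lower members were 8 to 10 and 4 for root minus cotyledon, 9 and 4 to 5 for root minus hypocotyl, and 2 to 3 and 5 to 6 for hypocotyl minus cotyledon. List genes in root were 13 to 17 higher and 0 to 1 lower at 3 h, and 13 to 16 higher and 0 lower at 24 h. With only the compared arrays, rises in root were 0 photosynthesis and 0 hypoxia genes at 3 h and 1 and 2 at 24 h, and 2 genes of pattern-triggered immunity fell at 3 h. With centring on reference genes, all-gene splits of higher and lower calls between harvests were 114 and 153 in hypocotyl and 16 and 52 in root. For the differences between organs they were 700 and 586 (cotyledon minus root) and 284 and 358 (hypocotyl minus cotyledon). With the replicate number as a block, 9 members were higher and 4 lower in root than in cotyledon, and no count of members changed by over 1.5 times. Of 2268 single results for 135 combinations of gene and comparison, 2221 kept their direction and side of the threshold, 14 lost and 32 gained a call and 1 changed sign. RMA values carry no background reading, so signal over background is not known for the 3 dim members in any organ, nor for 9 members, those 3 among them, in hypocotyl and cotyledon.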

Other observations

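Of the genes with a symbol, 2 met the same thresholds, both of the TRICHOME BIREFRINGENCE-LIKE family, whose members acetylate cell wall polysaccharides. TBL21 differed by 0.95 ± 0.13 in root at 3 h and by 0.54 ± 0.12 at 24 h, and TBL41 by 0.69 ± 0.16 and 0.50 ± 0.14. In hypocotyl and cotyledon TBL21 lay between −0.23 and 0.11 and TBL41 between −0.34 and 0.14. The family was looked at after these values were seen. Of 22 measured TBL genes, 5 rose and 1 fell in root at 3 h and 6 rose and 2 fell at 24 h in limma's moderated test, TBL21 and TBL41 among the rises at both times. Of all genes 5.38% rose and 5.35% fell at 3 h, and 8.39% rose and 9.31% fell at 24 h. Among the 9233 probe sets without a single named gene, 17 met the thresholds, and they are not named here.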
